A study of Mus musculus with 8 samples.

Results

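10 genes of the circadian clock were followed in the liver transcriptome of mice given fructose: Arntl, Npas2, Cry1, Nr1d1, Nr1d2, Dbp, Ciart, Per1, Per2 and Per3. They were picked by symbol from the 46078 genes of the count table, and all 10 had a row and passed the filter on low counts. They fall into 3 genes that are known to peak late in the night and around dawn (Arntl, Npas2, Cry1) and 7 that are known to peak by day and at dusk (Nr1d1, Nr1d2, Dbp, Ciart, Per1, Per2, Per3), here called the late-night group and the day-and-dusk group. The 2 groups of mice were 5 labelled wild-type (WT) and 3 labelled Rbfox2 knockout (Rbfox2 KO), and both were on control diet (CD) with 30% (w/v) fructose in their drinking water for 22 weeks. By the study's methods the mice started the diet at 8 weeks of age, both genotypes carried Rbfox2 LoxP/LoxP alleles, and the knockout also carried Alb_cre, a Cre recombinase driven by the albumin promoter, which deletes the gene in hepatocytes but not in the other cells of the liver. The livers came from fasted mice, housed under a light/dark cycle. Neither the clock time of collection nor the length of the fast for these animals is given in the sources used here.

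The clock of the liver is a feedback loop of transcription. ARNTL (also called BMAL1) pairs with CLOCK or NPAS2 and switches on the Per and Cry genes, Nr1d1, Nr1d2, Dbp and Ciart through E-boxes, and the PER and CRY proteins later shut this activity down. NR1D1 and NR1D2 (the REV-ERB proteins) repress Arntl, Npas2 and Cry1 through ROR elements, so that these rise when the REV-ERB transcripts are low, which makes the ratio of the 2 groups of genes within 1 sample informative on the phase of the clock.

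The motifs behind this loop are shown for the members whose promoter windows held an exact match. Windows of 250 bases before to 50 after each gene start (RefSeq, GRCm38.p6) were given for 9 of the 10 members. They were searched on both strands for the E-box CACGTG, for the D-box TTATGTAA, which DBP and its relatives bind, and for the ROR element, whose letters are those in capitals in the Arntl stretches, with any base allowed at the tenth position. The motifs were chosen with these windows already seen. The 3 motifs do not overlap one another in these windows. Each stretch below has 30 bases and reads 5′ to 3′ on the strand of the gene, with the motif in capitals.
Arntl, ROR element, chr7:113207492-113207521, plus strand: attggtcggAAAGTAGGTTAgtggtgcgac
Arntl, ROR element, chr7:113207528-113207557, plus strand: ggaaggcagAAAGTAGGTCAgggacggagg
Ciart, E-box, chr3:95882327-95882356, minus strand: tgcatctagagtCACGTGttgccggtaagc
Ciart, E-box, chr3:95882269-95882298, minus strand: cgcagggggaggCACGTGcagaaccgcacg
Ciart, E-box, chr3:95882255-95882284, minus strand: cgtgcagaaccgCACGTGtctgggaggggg
Per1, E-box, chr11:69098771-69098800, plus strand: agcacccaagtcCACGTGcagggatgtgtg
Cry1, E-box, chr10:85185097-85185126, minus strand: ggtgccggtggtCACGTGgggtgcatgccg
Per3, D-box, chr4:151044852-151044881, minus strand: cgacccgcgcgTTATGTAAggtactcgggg
Per3, D-box, chr4:151044805-151044834, minus strand: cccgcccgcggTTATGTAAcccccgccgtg
Of all 32851 promoter windows, 7.15% held the E-box, 0.938% the D-box and 0.0609% the ROR element. Arntl alone among the members with a window matched the ROR element, and Ciart held 3 E-boxes. Since the letters of the ROR element are those of the Arntl stretches, that match is no support of its own. Npas2, Nr1d1, Nr1d2 and Dbp had none of these letters in their windows. Only exact matches were searched, so a window without one is not shown to lack such a site.

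Total counts were between 24829693 and 37823155 per sample, and a level of 3 counts equals 0.084 to 0.118 CPM (counts scaled to a common library size by the trimmed mean of M-values, TMM). The sum of 5 hepatocyte markers was 68229 to 79586 CPM over the 8 samples. Rbfox2, the deleted gene, was at 13.96, 20.5, 19.0, 17.9 and 23.2 CPM across WT 1 to 5, and at 6.84, 8.61 and 12.4 CPM across Rbfox2 KO 1 to 3. Every Rbfox2 KO sample lay below every WT sample, by -1.03 ± 0.21 on the log2 scale (SE), while the adjusted p from edgeR was 0.328. Transcripts of 7 exocrine pancreas genes summed to 378 CPM in Rbfox2 KO 1 and 8.64 CPM in WT 1, and to at most 0.266 CPM in each of the other 6 samples. These 2 samples are also the ones set apart in the balance of the clock genes described further on. Whether pancreas RNA has a part in that was not tested. Rbfox2 KO 1 also had the highest TMM factor, 1.29 against 0.82 to 1.13 in the other samples. Major urinary protein (Mup) genes made up 6.54% of its counts, against 17.8% to 35.3% in the others. Their part in the clock values was not tested either. In whole liver, fewer cells of a type and less RNA per cell cannot be told apart.

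The genotypes were then compared gene by gene. No clock gene passed the test between Rbfox2 KO and WT livers: 0 of 10 reached an edgeR adjusted p of 0.05, as 0% of the 14654 genes tested did. At an unadjusted p under 0.05 the count was also 0 of 10, against 4.74% of all tested genes (2.41% higher and 2.33% lower in Rbfox2 KO). DESeq2 and limma-voom each called 0 of 10, while over all 14654 genes DESeq2 called 59 and limma-voom 0. The median log2 fold change of the 10 was 0.012, and 5 were above 0 and 5 below, where 50.2% of all genes were above 0 and 49.8% below. In CPM the 2 groups of mice overlapped for all 10 genes, whereas they did not overlap for 3.71% of all genes (1.89% higher and 1.82% lower in Rbfox2 KO). Unadjusted p-values from edgeR ran from 0.277 for Nr1d2 to 0.957 for Per3.

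**Figure D1:**
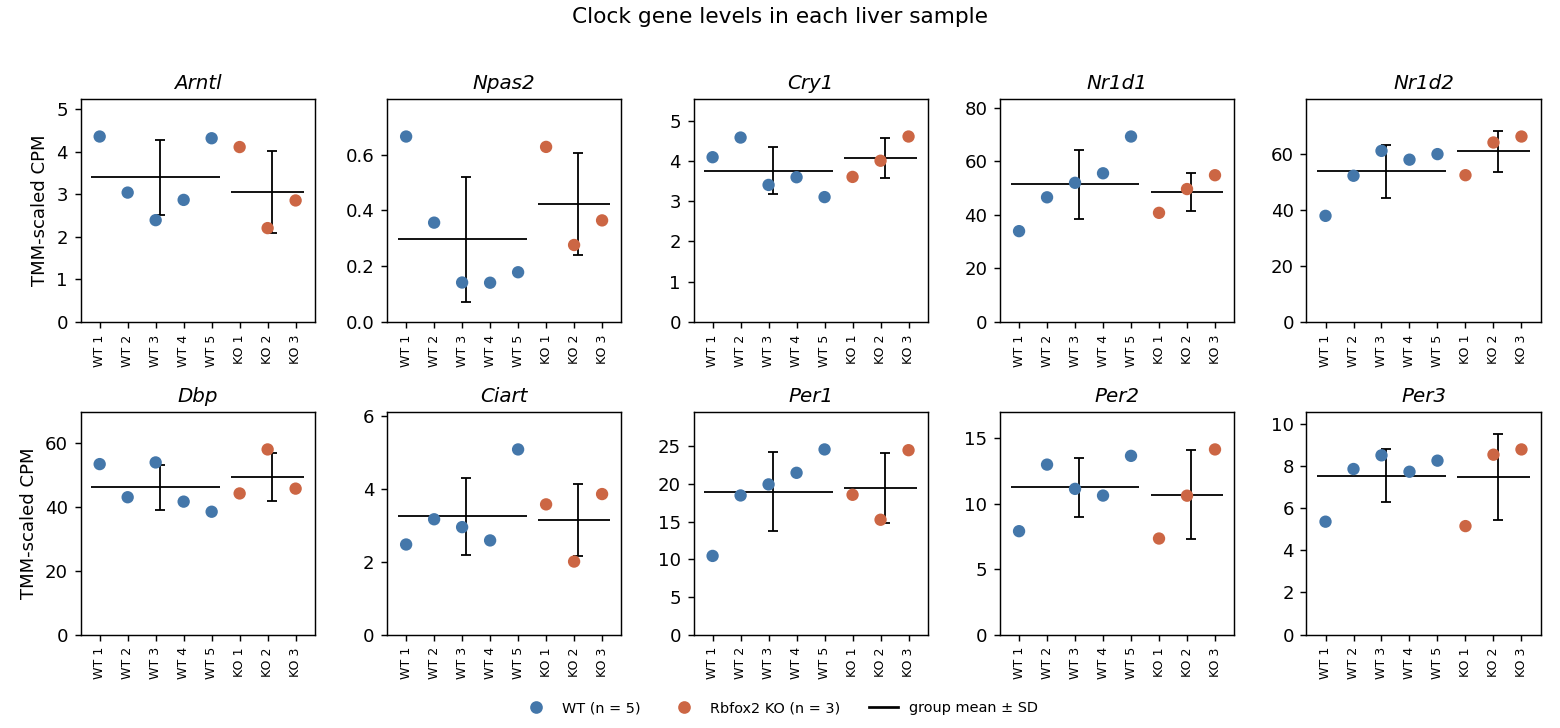
Each panel shows the level of 1 clock gene in TMM-scaled CPM (vertical axis, from 0) in the 8 samples (horizontal axis), with WT in blue, Rbfox2 KO in orange, and lines and bars for the group mean ± SD. The groups overlap for every gene, and WT 1 and Rbfox2 KO 1 are highest for Npas2 and lowest for Per2, Per3 and Nr1d1.

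Positions of genes are those of GENCODE M21 on GRCm38. Among the activators, Arntl (ENSMUSG00000055116, chr7:113207465-113314126), the core transcription factor of the loop, had 4.36, 3.04, 2.39, 2.87 and 4.32 CPM in WT 1 to 5 and 4.11, 2.20 and 2.85 CPM in Rbfox2 KO 1 to 3. WT 1, WT 5 and Rbfox2 KO 1 were high and the other 5 samples were lower, in both genotypes. The log2 fold change was -0.15 ± 0.26 (SE). Npas2 (ENSMUSG00000026077, chr1:39193731-39363236), the partner that can stand in for CLOCK, was close to the limit of detection, with 18, 11, 4, 4 and 6 counts in WT 1 to 5 and 20, 7 and 13 counts in Rbfox2 KO 1 to 3. Its level was 0.665, 0.356, 0.141, 0.140 and 0.177 CPM across the WT samples, and 0.627, 0.275 and 0.364 CPM across the knockouts. WT 1 and Rbfox2 KO 1 thus held the highest Npas2 levels of their groups. The fold change of 0.53 ± 0.55 (log2, SE) had a 95% interval from -0.69 to 1.76, the widest of the 10. It depended on single samples, at 1.04 without WT 1 and 0.13 without Rbfox2 KO 1.

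Cry1 (ENSMUSG00000020038, chr10:85131700-85185064), a repressor that shuts ARNTL activity down late in the cycle, had 4.10, 4.59, 3.41, 3.60 and 3.10 CPM in WT 1 to 5 and 3.61, 4.01 and 4.61 CPM in Rbfox2 KO 1 to 3. It varied little and did not single out WT 1 or Rbfox2 KO 1. Its log2 fold change was 0.12 ± 0.17 (SE).

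The REV-ERB genes were among the most abundant members. Nr1d1 (ENSMUSG00000020889, chr11:98767932-98775333) was at 33.9, 46.6, 52.0, 55.6 and 69.3 CPM in WT 1 to 5 and at 40.8, 49.7 and 54.8 CPM in Rbfox2 KO 1 to 3. The lowest value of each genotype was in sample 1, and WT 5 was the highest. Nr1d2 (ENSMUSG00000021775, chr14:18204054-18239127), its close relative, had 37.9, 52.2, 61.1, 57.9 and 59.9 CPM in WT 1 to 5 and 52.4, 64.1 and 66.2 CPM in Rbfox2 KO 1 to 3, again lowest in sample 1 of each genotype. The log2 fold changes were -0.089 ± 0.20 (SE) for Nr1d1 and 0.18 ± 0.16 (SE) for Nr1d2. Of the exon bases of Nr1d1, 8.55% also belong to Thra on the opposite strand. By the study's methods the reads were aligned as stranded (fr-firststrand), but whether strand was used in counting is not given in the sources used here. The level of Thra averaged 12.001 ± 2.73 CPM over 5 WT and 10.997 ± 1.37 CPM over 3 Rbfox2 KO livers (SD), and it was highest in WT 1, at 16.9 CPM.

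Dbp (ENSMUSG00000059824, chr7:45705088-45710203), an output of the clock that drives many rhythmic liver genes through D-boxes, had 53.5, 43.1, 54.0, 41.7 and 38.6 CPM in WT 1 to 5 and 44.3, 58.1 and 45.8 CPM in Rbfox2 KO 1 to 3. The high samples were WT 1, WT 3 and Rbfox2 KO 2, and WT 5, which was highest for Nr1d1, was the lowest for Dbp. The fold change was 0.097 ± 0.14 (log2, SE), with the narrowest interval of the 10, from -0.22 to 0.41. Dbp shares 18% of its exon bases with Sphk2 on the opposite strand, where strand likewise matters. Sphk2 was highest in WT 1 and Rbfox2 KO 1, at 45.5 and 42.2 CPM, and between 27.6 and 33.6 CPM in the other 6 samples.

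Ciart (ENSMUSG00000038550, chr3:95878503-95882251), a repressor of ARNTL activity, was scarce. Its levels were 2.47, 3.17, 2.95, 2.59 and 5.09 CPM in WT 1 to 5 and 3.58, 2.01 and 3.86 CPM in Rbfox2 KO 1 to 3. WT 5 stood alone above the other 7 samples, and the log2 fold change was -0.045 ± 0.28 (SE).

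The Per genes encode the PER repressors of the loop. Per1 (ENSMUSG00000020893, chr11:69095217-69109960) was at 10.5, 18.5, 19.96, 21.5 and 24.6 CPM in WT 1 to 5 and at 18.6, 15.3 and 24.5 CPM in Rbfox2 KO 1 to 3. Per2 (ENSMUSG00000055866, chr1:91415982-91459324) had 7.90, 12.99, 11.1, 10.6 and 13.7 CPM across the WT samples, and 7.34, 10.6 and 14.2 CPM across the knockouts. For Per2 the samples numbered 1 were the lowest of both genotypes, whereas for Per1 Rbfox2 KO 2 was the lowest knockout. Per3 (ENSMUSG00000028957, chr4:151003652-151044665) was at 5.35, 7.85, 8.50, 7.72 and 8.25 CPM in WT 1 to 5 and at 5.15, 8.53 and 8.78 CPM in Rbfox2 KO 1 to 3. WT 1 and Rbfox2 KO 1 lay below the other 6 samples, which differed little among themselves. The log2 fold changes were 0.034 ± 0.25 (SE) for Per1, -0.074 ± 0.22 (SE) for Per2 and -0.011 ± 0.20 (SE) for Per3.

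**Figure D2:**
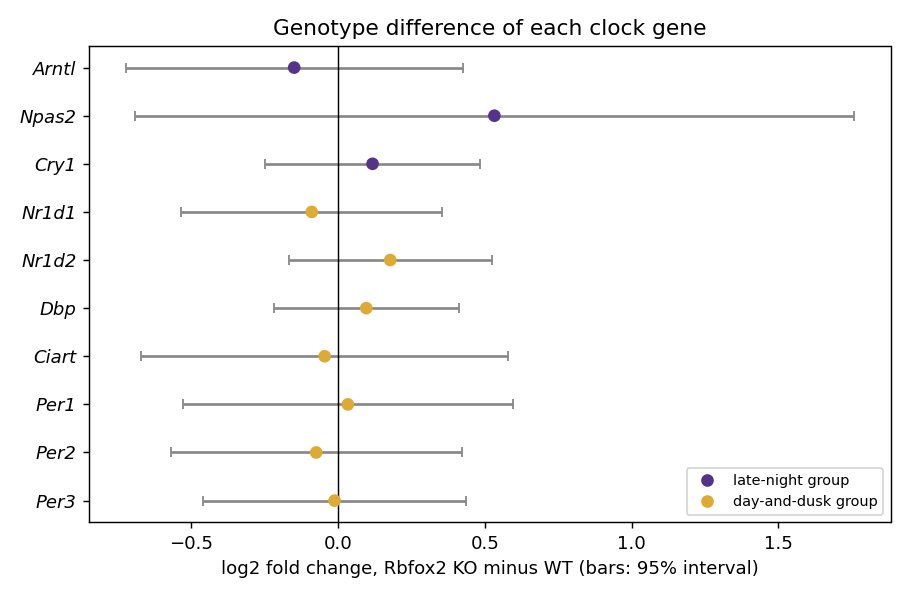
Points give the log2 fold change of each clock gene (Rbfox2 KO minus WT, horizontal axis) from the edgeR fit, bars its 95% interval, with the late-night group in purple and the day-and-dusk group in yellow. All 10 intervals include 0, and those of Dbp and Npas2 are the narrowest and the widest.

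The 95% intervals bound the differences between genotypes. For Nr1d2 it ran from -0.17 to 0.52, for Cry1 from -0.25 to 0.49, and for Arntl from -0.72 to 0.43, all on the log2 scale. A change of a full log2 unit lies outside the interval of every member other than Npas2. An unadjusted p above the threshold does not show that a gene was equal in both genotypes.

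Divided by exon length, the levels ordered the members as Nr1d1, Dbp, Nr1d2, Per1, Per2, Ciart, Cry1, Per3, Arntl and Npas2, from 16.4 ± 3.45 CPM per kilobase (SD, n = 8) for Nr1d1 to 0.0716 ± 0.0432 for Npas2. Nr1d1 and Dbp, at 15.8 ± 2.32, overlapped across samples, and so did Per1 with Per2, Per2 with Ciart, Ciart with Cry1, and Per3 with Arntl. The range of Nr1d1 (11.02 to 22.5) also reached that of Nr1d2 (6.998 to 12.2). Among neighbours, the ranges parted between Dbp (12.9 to 19.4) and Nr1d2, between Nr1d2 and Per1 (1.86 to 4.37), between Cry1 (0.930 to 1.38) and Per3 (0.536 to 0.914), and between Arntl (0.293 to 0.579) and Npas2 (0.0292 to 0.139). Of the 21 pairings of a day-and-dusk gene with a late-night gene, the day-and-dusk gene was the higher per kilobase in 18 for WT 1, in 19 for Rbfox2 KO 1 and Rbfox2 KO 2, and in 20 for the other 5 samples.

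To compare the phases within each sample, the mean log2 CPM of the 3 late-night genes was taken from that of the 7 day-and-dusk genes. Both means come from the same library, so that its scaling nearly drops out of the difference. The day-and-dusk mean was the higher in all 8 samples. The genes differ in abundance, and no samples of known clock time were compared. Neither this sign nor the pairings per kilobase can therefore tell day from night. The difference was 2.499, 3.31, 3.998, 3.80 and 3.86 across WT 1 to 5, on the log2 scale, while the knockouts 1 to 3 had 2.85, 3.59 and 3.57. WT 1 and Rbfox2 KO 1 were the lowest of their groups and of all 8, and the other 6 samples lay between 3.31 and 3.998. It averaged 3.49 ± 0.61 over 5 WT and 3.33 ± 0.42 over 3 Rbfox2 KO livers (SD), a difference of -0.16, smaller than the SD of either group. No test was made of this score. Its sign was not stable: the difference between genotypes was 0.17 with medians in place of means, 0.033 without Npas2 and 0.085 without Rbfox2 KO 1, and -0.41 without WT 1.

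**Figure D3:**
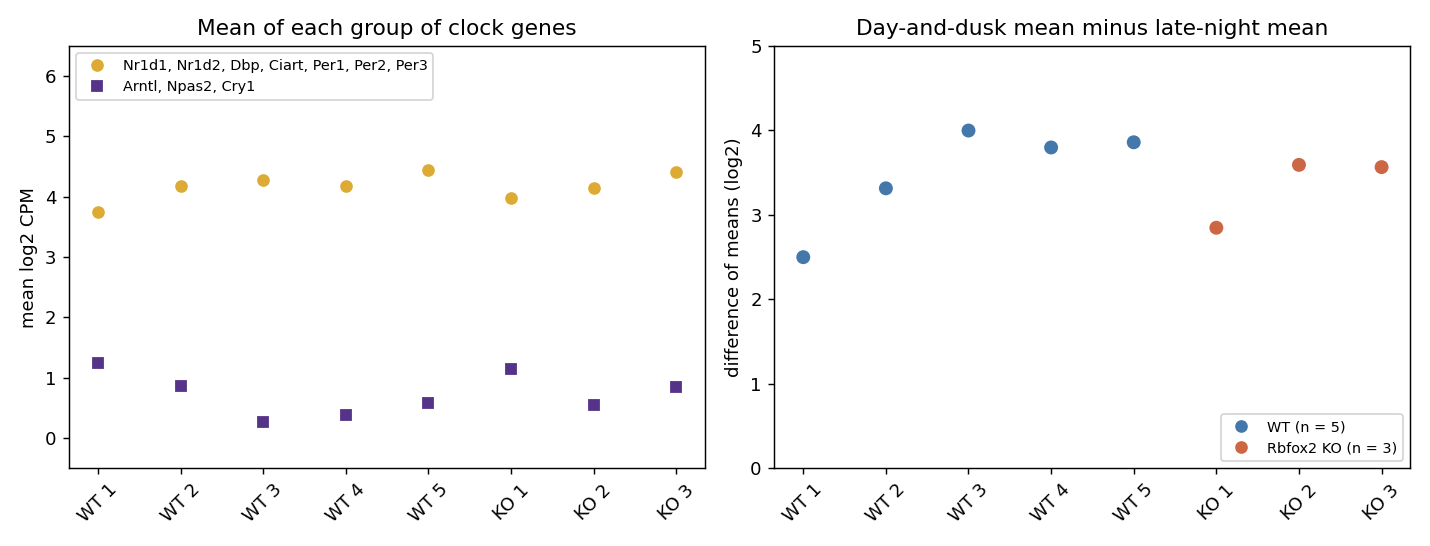
On the left, the mean log2 CPM (vertical axis) of the 7 day-and-dusk genes (yellow circles) and of the 3 late-night genes (purple squares) in each of the 8 samples, and on the right their difference, with WT in blue and Rbfox2 KO in orange. The means are closest in WT 1, at a difference of 2.499, and in Rbfox2 KO 1, at 2.85.

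The means of both groups of genes contributed to this, but not every member did. In Rbfox2 KO 1, Ciart (3.58 CPM), Per1 (18.6 CPM) and Dbp (44.3 CPM) lay within the range of the other samples. Dbp was not low in WT 1 either, at 53.5 CPM. The day-and-dusk mean was 3.75 in WT 1 and 3.98 in Rbfox2 KO 1, the lowest 2 of the 8, while the other samples had 4.14 to 4.45. The late-night mean was 1.25 in WT 1 and 1.14 in Rbfox2 KO 1, the highest 2, against 0.27 to 0.87 in the others. Much of that gap came with Npas2: the mean of Arntl and Cry1 alone was 2.10 in WT 1 and 1.97 in Rbfox2 KO 1, next to 1.93 in WT 2 and down to 1.55 in WT 3. With Npas2 left out, the difference was still smallest in WT 1 (1.65) and Rbfox2 KO 1 (2.01) and ran from 2.26 to 2.72 in the other 6. Ratios of single members use genes that are already part of this difference, so they are no separate support for it. The log2 ratio of Per2 to Arntl was 0.85 in WT 1 and 0.83 in Rbfox2 KO 1 against 1.65 to 2.28 in the others. That of Nr1d1 to Arntl was 2.94 in WT 1 and 3.29 in Rbfox2 KO 1 against 3.91 to 4.45. The ratio of Dbp to Arntl did not separate them: it was 3.60 in WT 1 and 3.41 in Rbfox2 KO 1, and WT 5 was the lowest at 3.14.

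Within the day-and-dusk group, Dbp was set against the Per genes. The log2 ratio of Per2 to Dbp was -2.75, -1.73, -2.27, -1.97 and -1.49 across WT 1 to 5, while the knockouts 1 to 3 had -2.58, -2.45 and -1.69. It was lowest in WT 1 and highest in WT 5, a range of 1.26 that lay within WT, and averaged -2.04 ± 0.49 over 5 WT and -2.24 ± 0.48 over 3 Rbfox2 KO livers (SD).

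Pairs of members were then compared across the 8 samples, on log2 CPM. These correlations share the libraries and their scaling. Of 45 pairs, 0 passed an adjusted p of 0.05 by exact permutation of Pearson's r, and 10 had an unadjusted p under 0.05. Among the 15 pairs of day-and-dusk genes that did not include Dbp, r was above 0 in 15, with a median of 0.68. The 6 pairs with Dbp were all below 0, with a median of -0.42. Both counts were the same with library totals in place of TMM, and with values centred on the mean of each genotype. Leaving out WT 1 and Rbfox2 KO 1, here and below, was chosen after seeing the data. Without them the counts were 13 of 15 above 0 and 4 of 6 below, with medians of 0.26 and -0.57.

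**Figure D4:**
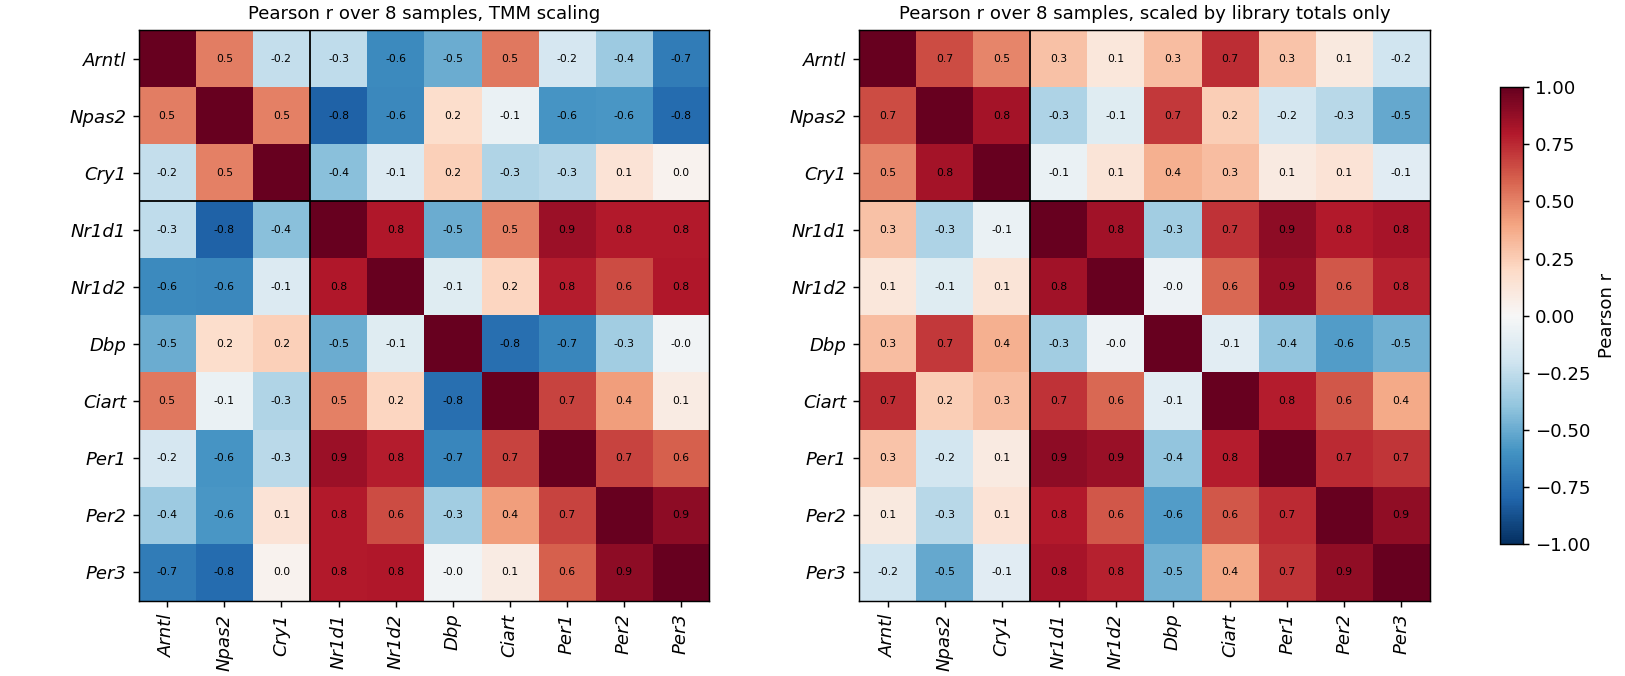
Colour and number give Pearson's r over the 8 samples for each pair of clock genes, on log2 CPM with TMM scaling (left) and with library totals (right), and lines part the late-night group from the day-and-dusk group. Dbp is below 0 with each other day-and-dusk gene under both scalings, while r between the groups has a median of -0.30 on the left and 0.12 on the right.

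Nr1d1 and Per1 had the smallest p. Their r was 0.85 (exact permutation p = 0.00846, adjusted 0.127 over 45 pairs) and Spearman's rho 0.88 (exact permutation p = 0.00724, adjusted 0.163). Without WT 1 and WT 5, the samples farthest from the median of Nr1d1, r was 0.51 (exact permutation p = 0.294). It was 0.68 without WT 1 alone (exact permutation p = 0.0897), 0.84 without WT 5 alone (exact permutation p = 0.0222) and 0.73 without WT 1 and Rbfox2 KO 1 (exact permutation p = 0.101). Per2 and Per3 had r = 0.89 (exact permutation p = 0.00962, adjusted 0.127) and rho = 0.69 (exact permutation p = 0.0694, adjusted 0.347), and since r was 0.24 without WT 1 and Rbfox2 KO 1, the relation rests on those samples. Of the 3 pairs with the smallest p, Nr1d2 and Per3 held without its farthest samples. It had r = 0.80 (exact permutation p = 0.0131, adjusted 0.127) and rho = 0.88 (exact permutation p = 0.00724, adjusted 0.163), and r = 0.91 without WT 1 and WT 2 (exact permutation p = 0.00139, the smallest that 6 samples can give).

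Between the groups, 16 of 21 pairs were below 0, with a median r of -0.30. This depended on the scaling, since with library totals 13 of 21 were above 0 and the median was 0.12, and without WT 1 and Rbfox2 KO 1 it was 0.026. The strongest such pair was Npas2 and Nr1d1, with r = -0.81 (exact permutation p = 0.0134, adjusted 0.127) and rho = -0.76 (exact permutation p = 0.0368, adjusted 0.331). It was -0.72 without WT 1 and WT 4, -0.44 without WT 1 and Rbfox2 KO 1 (exact permutation p = 0.415), and -0.31 with library totals. Arntl and Nr1d1 had r = -0.25 (exact permutation p = 0.546, adjusted 0.718) and rho = -0.26 (exact permutation p = 0.536, adjusted 0.71), with r = -0.66 without WT 1 and WT 5 but 0.77 without WT 1 and Rbfox2 KO 1, so that its direction depended on the samples. Among day-and-dusk genes, r with Arntl was lowest for Per3, at -0.70, and Nr1d2, at -0.64 (exact permutation p = 0.0657 and 0.068, both adjusted 0.194). Both were -0.30 without WT 1 and Rbfox2 KO 1. With library totals they were -0.20 and 0.12. Only Ciart was above 0 with Arntl, at 0.52.

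The spread of the members between WT mice rested in good part on WT 1. This sample was left out after its values were seen, which tends to lower the SD of genes in which it was extreme. Over all 5 WT samples the SD of log2 CPM was above the median of all tested genes (0.22) for 9 of 10 members, and the median over the 10 was 0.34. Without WT 1 it was above the median of all tested genes (0.18) for 6 of 10, and the median over the 10 was 0.22. Per1 went from 0.47 to 0.18, Per3 from 0.27 to 0.063, Nr1d2 from 0.29 to 0.10 and Per2 from 0.31 to 0.17. Npas2, with few counts behind it, Ciart and Arntl were the most variable without WT 1, at 0.49, 0.42 and 0.35. Cry1 and Dbp, both at 0.22 over all WT samples, changed little, to 0.24 and 0.21.

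The rest of the clock and the genes it drives were compared by 6 lists. At an adjusted p of 0.05 by edgeR, as by DESeq2 and limma-voom, 0 of 55 tested genes passed. An unadjusted p under 0.05 was seen for 4, all higher in Rbfox2 KO, which is 7.27% against 4.74% of all tested genes. Among the other core clock genes, 0 of 11 had an unadjusted p under 0.05. Their log2 fold changes were above 0 for 3 and below for 8, where 50.2% of all tested genes were above 0. Those with the smallest p were Bhlhe40, a repressor that competes for E-boxes, and Hlf, a relative of Dbp. The mean of Bhlhe40 was 35.7 ± 10.7 CPM over 5 WT and 26.6 ± 4.58 CPM over 3 Rbfox2 KO livers (SD), or -0.42 ± 0.24 as a log2 fold change (SE). For Hlf the means were 40.3 ± 5.48 and 32.3 ± 9.60 CPM, or -0.32 ± 0.19 (SE). Within each genotype Hlf was lowest in the sample numbered 1, at 34.6 CPM in WT 1 and 21.9 CPM in Rbfox2 KO 1, though Rbfox2 KO 2, at 34.3 CPM, also lay below WT 1.

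Of 8 genes whose products modify or degrade clock proteins, all 8 had a log2 fold change above 0, with a median of 0.11, where 50.2% of all tested genes were above 0, and 0 passed an adjusted p of 0.05 by edgeR.

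Among 15 rhythmic liver outputs, 2 had an unadjusted edgeR p under 0.05, against 4.74% of all tested genes. Both were higher in Rbfox2 KO. Gys2, the liver glycogen synthase, had 113, 103, 118, 112 and 121 CPM in WT 1 to 5 and 138, 131 and 140 CPM in Rbfox2 KO 1 to 3. The genotypes did not overlap, as for 3.71% of all tested genes. The log2 difference was 0.26 ± 0.089 (SE, adjusted p = 0.882 by edgeR). Por, the reductase that serves the cytochromes P450, averaged 222 ± 25.8 CPM over 5 WT and 273 ± 28.6 CPM over 3 Rbfox2 KO livers (SD), with overlap, and the log2 difference was 0.30 ± 0.12 (SE, adjusted p = 0.995 by edgeR).

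Per1 also answers to glucocorticoids, and other clock genes to body temperature and feeding, so genes of these signals were set beside them. Of 5 glucocorticoid-responsive genes, 0 had an unadjusted p under 0.05. Sgk1 was the closest, with a log2 fold change of 0.49 ± 0.22 (SE), and was highest in the samples numbered 1, at 23.3 CPM in WT 1 and 33.4 CPM in Rbfox2 KO 1. For Tat the fold change was 0.37 ± 0.20 (log2, SE). The list did not move as one, with 3 fold changes above 0 and 2 below. Fkbp5, named after its values were seen, was by contrast lowest in WT 1 within WT, at 18.0 CPM, and lowest in Rbfox2 KO 1 within the knockouts, at 21.3 CPM, with a log2 fold change of -0.083 ± 0.42 (SE). Zbtb16, likewise named after its values were seen, was lowest in WT 1 within WT, at 1.40 CPM. Within the knockouts it was lowest in Rbfox2 KO 2, at 3.30 CPM, against 4.55 CPM in Rbfox2 KO 1. Its log2 fold change was -0.87 ± 1.10 (SE). Of 7 temperature-responsive genes, 0 had an unadjusted p under 0.05. Rbm3, induced by cold, had 0.17 ± 0.090 (log2 fold change, SE) and Hspa1a, a heat shock gene, -0.27 ± 0.35 (SE). Hspa1a was lowest in WT 1 (21.4 CPM) and Rbfox2 KO 1 (14.7 CPM), and 34.4 to 49.9 CPM in the other 6 samples.

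Of 9 fasting-responsive genes, 8 had a log2 fold change above 0, where 50.2% of all tested genes did. At an unadjusted edgeR p under 0.05 there was 1, against 4.74% of all tested genes. This was Fgf21, a hormone that the liver releases on fasting. It had 11.1, 6.75, 12.4, 10.03 and 15.8 CPM in WT 1 to 5 and 24.3, 17.6 and 14.0 CPM in Rbfox2 KO 1 to 3. WT 5 overlapped the knockouts, and the log2 difference was 0.73 ± 0.25 (SE, adjusted p = 0.894 by edgeR).

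The genes whose pattern over the 8 samples was most like that of Arntl, by Pearson's r on log2 CPM and as a description, were 9130208D14Rik (0.97), Daglb (0.96), Tomm34 (0.95), Msl3l2 (0.94) and Clec4f (0.94). For Dbp they were Pex6 (0.97), Timm8a1, Emg1 and Gm9797 (0.96 each) and Acaa1b (0.96). They are the highest of 14654 genes over 8 samples, and 9130208D14Rik and Msl3l2 averaged only 0.316 and 0.446 CPM. Clec4f is a marker of Kupffer cells, the macrophages of the liver, and its log2 fold change between genotypes was -0.034. The other 3 Kupffer cell markers were above 0. Marco, a scavenger receptor, averaged 10.7 ± 1.79 CPM over 5 WT and 23.9 ± 6.39 CPM over 3 Rbfox2 KO livers (SD). The genotypes did not overlap, as for 3.71% of all tested genes, and the log2 difference was 1.16 ± 0.18 (SE, adjusted p = 0.138 by edgeR). Cd5l differed by 0.44 ± 0.13 (SE, adjusted p = 0.864 by edgeR) and Vsig4 by 0.14 ± 0.14 (SE). The sum of the 4 markers was 161 to 185 CPM in WT and 172 to 229 CPM in Rbfox2 KO, and its part in the values of the clock genes was not tested. Marco, Cd5l and Vsig4 are named here after their values were seen.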

How the data were processed

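RNA-seq of 8 livers, 5 WT and 3 Rbfox2 KO, was analysed from raw read counts per Ensembl gene that the authors deposited. The authors aligned poly(A)-selected paired-end reads to GRCm38 with TopHat2 2.0.11, set to a first-strand library type, and counted them with featureCounts. Strand use and the handling of multiple alignments at the counting step are not given in the sources used here. Of 46078 genes, 14654 passed filterByExpr of edgeR, with 0 sample columns left unmapped. Counts were scaled by TMM and tested in R 4.3.3 by the robust quasi-likelihood method of edgeR 4.0.16, on genotype alone, with Benjamini-Hochberg adjustment over all tested genes and a threshold of 0.05. SE is the fold change divided by the root of F, and log2 CPM used a prior count of 2. Gene symbols, positions and exon lengths came from GENCODE M21. DESeq2 1.42.0 and limma-voom 3.58.1, other scalings and filters, a block on the sample number and leaving out samples were alternatives. The procedure was tested on simulated data. It called 94 of 100 genes with the larger planted change and 64 of 100 with the smaller, and 7 of its 165 calls were false. Changes of the smaller size could thus be missed. Total counts were 24829693 to 37823155, and floors cover counting error only.

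Members and lists were chosen with earlier results of these data known. Named genes were the members, Rbfox2, genes overlapping a member, list genes with an unadjusted p under 0.05 or else the 2 smallest, and the 5 most like Arntl and Dbp. Whether the mice shared litters or days is not given. The p-values take the samples as independent and rest on the spread between them. 1 result that this rule would name is not reported here.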

Additional observations from a re-analysis of the deposited data

Results flagged for a closer look

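In WT, 1 sample stood apart from the other 4 in 5 of 42 values tested by the gap to its nearest neighbour over the range (critical value 0.71), where chance gives about 1 in 20, or 2.1. Ciart was at 5.09 CPM in WT 5 against 2.47 to 3.17 CPM in the others, a gap of 0.735 of the range. Per3 was at 5.35 CPM in WT 1 against 7.72 to 8.50 CPM, a gap of 0.753. WT 1 also stood apart in the sum of 7 temperature-responsive genes, at 1714 CPM against 1971 to 2075 CPM, and in the sum of 7 exocrine pancreas genes, at 8.64 CPM against 0.0703 to 0.266 CPM. WT 5 stood apart in the sum of 3 sinusoidal endothelial genes, at 81.6 CPM against 74.9 to 76.2 CPM.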

How the results depend on the processing

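The count of clock genes called stayed at 0 in all 19 alternatives, as did that of the other clock lists. For all genes it was 0, and became 6 without a filter on low counts and 59 with DESeq2. By DESeq2 Rbfox2 passed, at -1.03 (adjusted p = 0.0019), and it stayed lower in all 19. Of 189 fold changes of clock genes under alternatives, 165 kept their direction and 24 turned, none past the threshold. With library totals Ciart was at 0.059 and Per3 at 0.060, and without a filter Per3 was at 0.0021. With the replicate block, which rests on 3 shared numbers, Nr1d1 was at 0.14, Dbp at -0.028, Ciart at 0.10 and Per3 at 0.038. The block changed no adjusted call. At an unadjusted edgeR p under 0.05 it gave 739 of 14654 genes against 694 in the main fit. It gave 1 of 10 clock genes (Nr1d2) against 0, and 11 of 55 genes of the other clock lists against 4. WT 4 and WT 5 have no knockout of the same number and carry nothing on genotype in this fit, which leaves few degrees of freedom. Whether the numbers pair the samples cannot be settled by 3 shared numbers. Same-numbered samples correlated by 0.16, 0.048 and 0.17 in their deviations from group means. Samples with different numbers ran from -0.41 (WT 3 with Rbfox2 KO 1) to 0.37 (WT 3 with Rbfox2 KO 2). Leaving out 1 sample at a time, the fold change ran from -0.43 to 0.034 for Arntl, -0.21 to 0.043 for Nr1d1, -0.036 to 0.16 for Dbp, -0.22 to 0.19 for Ciart, -0.17 to 0.18 for Per1, -0.33 to 0.13 for Per2 and -0.15 to 0.19 for Per3, so that 1 sample could turn each of these, and from 0.13 to 1.04 for Npas2, the widest. Without both WT 1 and Rbfox2 KO 1, an alternative chosen after seeing the data, Per1 was at -0.091, Per2 at 0.029 and Per3 at 0.093, and r of Npas2 and Per3 went from -0.77 to 0.28. The phase difference between genotypes ran from -0.41 to 0.17. The causes were not tested. With 3 knockouts, and 4 to 20 counts of Npas2 per sample, small differences could not be resolved.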
